A study of Mus musculus with 69 samples.

Results

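Naive CD8+ T cells cultured with interleukin-7 (IL-7) were compared with naive CD4+ T cells cultured with the same cytokine, gene by gene, in wild-type (WT) mice. The libraries were chosen by their labels alone: the 3 WT naive CD4+ and the 2 WT naive CD8+ libraries with IL-7, which are 5 of the 69 samples of the series. All 24309 gene symbols that the CD4+ and the CD8+ count tables share were used, and 10151 of them passed the filter on low counts and were tested. Each lineage stands in its own count table, so a lineage difference cannot be told apart from any other difference between the tables, such as the animals, the days or the sequencing runs behind them.

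The series was made to ask how the paralogs STAT5A and STAT5B divide their work in T cells. WT mice were Stat5a+/+ Stat5b+/+. AAB mice (Stat5a-/- Stat5b+/-) kept a single allele of Stat5b, and BBA mice (Stat5a+/- Stat5b-/-) a single allele of Stat5a, both as germline deletions that every cell of the animal carries. Naive cells, positive for CD3 and for CD4 or CD8α and low in CD44, came by sorting from lymph nodes and spleens that had been combined, of young adult mice of either sex. They were kept with IL-7 for 12 to 16 h before poly(A)+ RNA was sequenced. 6 further groups of libraries served for comparison: CD4+ (3) and CD8+ (2) naive WT cells without cytokine, and naive cells with IL-7 from AAB (2 CD4+, 2 CD8+) and BBA mice (3 CD4+, 2 CD8+). The labels describe a culture also for the cells without cytokine, while the study's methods have them processed directly after the sort, so an IL-7 response here may hold the effect of culture as well.

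CD4+ and CD8+ T cells arise from common precursors in the thymus, where the strength and length of T cell receptor (TCR) signalling on class II or class I MHC sets the choice between them. ThPOK, the product of Zbtb7b, keeps the CD4+ fate and RUNX3 the CD8+ fate, in part by silencing each other's programme. IL-7 keeps naive cells of both lineages alive through a receptor made of IL-7Rα and the common gamma chain, which activates JAK1, JAK3 and STAT5.

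The labels held in every library. All levels below are TMM-scaled CPM, that is counts relative to library size after TMM, which sets libraries to a common effective size. They can be compared between libraries but not between genes of different length. Cd4 (chr6:124864692-124888221, GRCm38, minus strand) stood at 612, 699 and 708 CPM in the 3 CD4+ libraries and at 0.169 and 0.0942 CPM in the 2 CD8+ libraries, that is 35394 against 3 counts, a ratio of 5169 (exact 95% interval 1768 to 25064, counting error only). Cd8a (chr6:71373427-71379173, plus strand) stood at 7.504, 1.03 and 0.833 CPM in the CD4+ and 1232 and 1144 CPM in the CD8+ libraries. Cd8b1, the partner chain of CD8 (chr6:71322788-71337494, plus strand), kept a low level in all CD4+ libraries, 19.96, 17.3 and 16.6 CPM or 2.36% to 2.84% of its mean in the CD8+ libraries (697 and 709.7 CPM), whereas Cd8a there was at 0.0701% to 0.632%. Ccr7, the lymph node homing receptor of naive cells, was not called (0.03 ± 0.08).

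Library totals on genes were 6705004 to 34118295 counts in the CD4+ and 10623456 to 11850266 in the CD8+ libraries, and the common biological coefficient of variation was 10.9%. Log2 CPM values correlated across genes at 0.985 to 0.988 within a lineage and 0.943 to 0.955 between lineages. By Xist and Y-linked genes the 5 libraries were all of male cells, as were all AAB and BBA libraries with IL-7, while the 2 CD8+ libraries without cytokine were of female cells. Xist was nonetheless called higher in the CD8+ cells with IL-7, at 0, 0.502 and 0.463 CPM in the CD4+ and 2.19 and 5.27 CPM in the CD8+ libraries, a call lost without CD8+ replicate 2. Summed levels of a list are given in CPM of the library total, without TMM. The summed level of 14 B cell markers was 18.6 to 27.8 CPM in the CD4+ and 20.4 to 48.9 CPM in the CD8+ libraries with IL-7, that of 16 myeloid markers 33.5 to 52.2 and 44.5 to 45.4 CPM, and the groups overlapped in both.

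Calls required a fold change above 1.5 and an adjusted p below 0.05 (edgeR's quasi-likelihood test, Benjamini-Hochberg). Log2 fold changes are of CD8+ over CD4+ cells, given ± SE. In WT cells with IL-7 1146 of 10151 genes (11.3%) were called, 598 higher in CD8+ cells (5.89%) and 548 higher in CD4+ cells (5.4%). Of these 277 and 272 differed by more than 2-fold, and the median log2 fold change of all genes tested was 0.0047. The same test on libraries that share none with it called 273 of 9187 genes (2.97%) in AAB cells with IL-7, 642 of 9299 (6.9%) in BBA cells with IL-7 and 1582 of 10412 (15.2%) in WT cells without cytokine. The AAB count rests on 4 libraries and was 150 without CD8+ replicate 1, 446 without CD4+ replicate 3 and 1808 without CD8+ replicate 2. The BBA count was 302 without CD8+ replicate 1 and 404 without CD4+ replicate 3, and the count without cytokine 967 without CD8+ replicate 2. The count without cytokine also sets female CD8+ cells against male CD4+ cells.

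**Figure D1:**
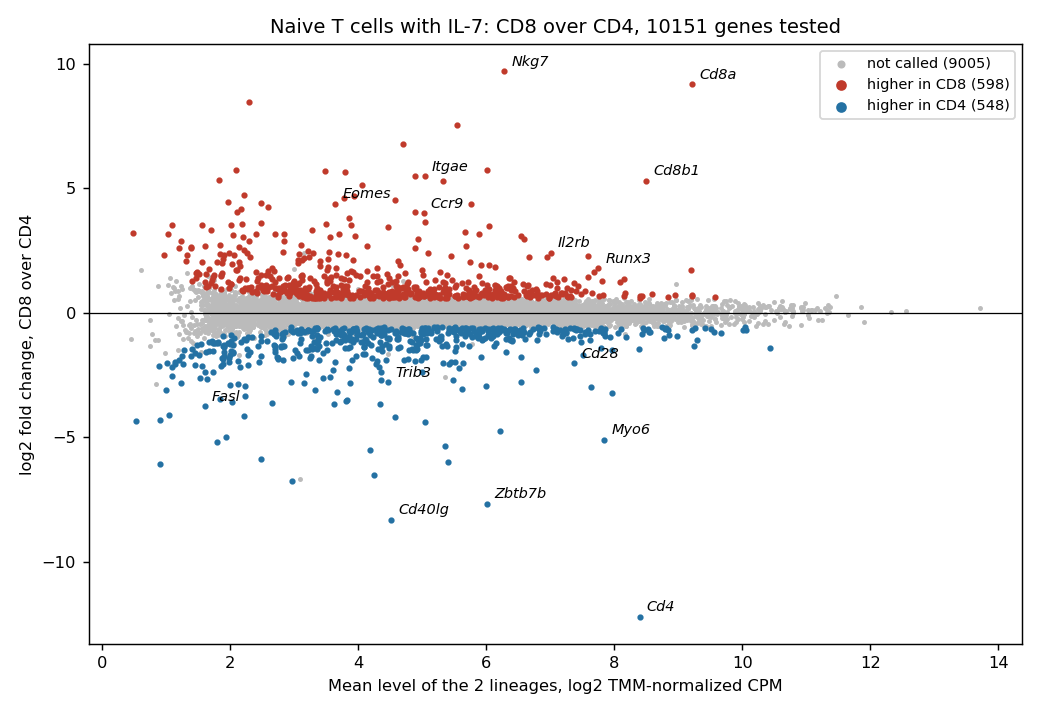
Log2 fold change of CD8+ over CD4+ WT naive cells with IL-7 (y axis) against the mean level of both lineages in log2 TMM-normalized CPM (x axis), 1 point for each of 10151 genes. Red points are the 598 genes called higher in CD8+ cells, blue points the 548 called higher in CD4+ cells and grey points those not called; Cd4 at -12.21 and Nkg7 at 9.71 lie at the lower and upper ends.

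Of the 28 tested transcription factors of T cell lineage choice, 3 were called higher in CD8+ cells (Runx3, Runx2, Eomes). A further 3 were called higher in CD4+ cells (Zbtb7b, Runx1, Gata3), and the median log2 fold change of the list was -0.12. Together the calls are 21.4% of the list, against 11.3% of all genes tested (5.89% higher in CD8+ and 5.4% higher in CD4+ cells). Zbtb7b (chr3:89377644-89394776, minus strand) was at 115, 131 and 142 CPM in CD4+ and 0.759 and 0.471 CPM in CD8+ cells (log2 fold change -7.68 ± 0.20, adjusted p = 6.67e-07). It was thus below 1 CPM in both CD8+ libraries. Runx3 (chr4:135120652-135177990, plus strand) was at 108, 83.3 and 99.4 CPM in CD4+ and 314 and 354 CPM in CD8+ cells (log2 fold change 1.80 ± 0.11, adjusted p = 2.84e-05), so that CD4+ cells held at least 83.3 CPM of it. Runx1, the family member that acts in both lineages, went the other way, at 140.0, 136 and 157 against 41.5 and 43.7 CPM (log2 fold change -1.76 ± 0.08, adjusted p = 9.65e-06). Gata3, required for CD4+ development, was at 36.02, 27.7 and 34.4 CPM in CD4+ and 12.6 and 11.7 CPM in CD8+ cells (log2 fold change -1.42 ± 0.14, adjusted p = 3.99e-04). Eomes, a T-box factor of CD8+ memory, was at 0.4502, 1.33 and 1.204 CPM in CD4+ and 18.8 and 29.0 CPM in CD8+ cells (log2 fold change 4.39 ± 0.31, adjusted p = 6.84e-05). Tcf7 had a log2 fold change of -0.54 ± 0.07, Satb1 of -0.51 ± 0.08 and Bcl11b of -0.54 ± 0.10, and none of the 3 was called. Without CD8+ replicate 2 all 3 passed the limits, with 7 members in place of 3 higher in CD4+ cells, and Bcl11b also did without CD4+ replicate 2. The Runx1, Gata3 and Zbtb7b differences were also called in AAB, BBA and WT cells without cytokine. The Runx3 difference was called in AAB (2.24) and BBA cells (2.14) and not without cytokine (0.86 ± 0.30, adjusted p = 0.0717).

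RUNX proteins bind the core TGTGGT, and 3 of these lineage genes hold it in the promoter windows that RefSeq gives for GRCm38.p6, from 250 bases before to 50 after an annotated start. They are shown because Zbtb7b and Runx3 define the lineages and Nkg7 had the largest fold change toward CD8+ cells; the core, on either strand, is in capitals (ACCACA is its reverse complement), and each sequence runs 5′ to 3′ along its gene.
Zbtb7b, inner start (chr3:89387622-89387921, minus strand): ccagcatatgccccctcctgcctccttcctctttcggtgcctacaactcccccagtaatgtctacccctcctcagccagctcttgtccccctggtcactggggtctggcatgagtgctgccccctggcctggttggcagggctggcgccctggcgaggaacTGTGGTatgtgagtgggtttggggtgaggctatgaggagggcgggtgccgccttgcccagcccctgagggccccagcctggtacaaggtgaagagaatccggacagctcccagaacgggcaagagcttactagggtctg
Runx3, outer start (chr4:135120395-135120694, plus strand): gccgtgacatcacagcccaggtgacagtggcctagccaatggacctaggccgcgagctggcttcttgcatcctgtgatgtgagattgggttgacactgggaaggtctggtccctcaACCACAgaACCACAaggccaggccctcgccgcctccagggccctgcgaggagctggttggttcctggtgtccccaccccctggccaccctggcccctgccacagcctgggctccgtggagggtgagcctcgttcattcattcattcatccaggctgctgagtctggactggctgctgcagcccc
Nkg7 (chr7:43436888-43437187, plus strand): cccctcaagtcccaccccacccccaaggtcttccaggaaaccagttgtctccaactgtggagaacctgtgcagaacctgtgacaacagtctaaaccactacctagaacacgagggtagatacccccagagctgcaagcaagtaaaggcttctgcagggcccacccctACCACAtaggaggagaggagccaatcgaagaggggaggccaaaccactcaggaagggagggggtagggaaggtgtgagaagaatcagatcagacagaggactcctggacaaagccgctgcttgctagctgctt
Positions counted from the start were -89 in Zbtb7b, -134 and -126 in Runx3 and -83 in Nkg7. The other listed windows of Zbtb7b and Runx3 and that of Cd8a lack these letters. The core stood in 16.0% of the windows of genes called higher in CD8+ cells, 12.4% of those of genes called higher in CD4+ cells, 12.6% of those of all genes tested and 16.8% of all 32851 windows, and 80.8% to 81.8% of the genes in the first 3 sets had a window. A match in a promoter is a description of the letters, and no binding was measured in these libraries.

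Beside Cd8a and Cd8b1, the genes of largest fold change toward CD8+ cells included those that follow. Nkg7, a membrane protein of cytotoxic granules, was at 0.7504, 0.118 and 0 CPM in CD4+ and 163 and 148 CPM in CD8+ cells (log2 fold change 9.71 ± 0.31, adjusted p = 1.94e-06). Itgae, the integrin chain CD103 that binds E-cadherin on epithelium, was at 1.95, 1.39 and 1.11 CPM in CD4+ and 52.7 and 75.5 CPM in CD8+ cells (log2 fold change 5.49 ± 0.22, adjusted p = 3.71e-06). Both groups of libraries were far apart for each of these genes. Gpr55, a receptor for lysophosphatidylinositol, was at 0, 0.207 and 0.0926 against 12.6 and 4.24 CPM (log2 fold change 5.75 ± 0.69, adjusted p = 8.32e-04). Kcnc1, a voltage-gated potassium channel, was at 0.7504, 0.443 and 0.0926 against 16.1 and 27.6 CPM (log2 fold change 5.72 ± 0.43, adjusted p = 8.85e-05). Of these only Gpr55 had CD8+ libraries that differed from each other by more than a factor of 2. Slc6a19, a transporter of neutral amino acids, was at 0.9004, 1.36 and 1.296 against 53.96 and 62.5 CPM (log2 fold change 5.51 ± 0.15, adjusted p = 9.95e-07). Alpl, the tissue-nonspecific alkaline phosphatase, was at 0.3001, 0.6499 and 0.3704 against 28.1 and 26.7 CPM (log2 fold change 5.68 ± 0.23, adjusted p = 3.92e-06). Plac8 had a log2 fold change of 6.77 ± 0.41 and Bend4 of 5.76 ± 0.19. Nkg7, Itgae, Plac8, Bend4, Kcnc1 and Alpl were also called higher in CD8+ cells in AAB, BBA and WT cells without cytokine; Slc6a19 was called in BBA cells and without cytokine and stood at 3.94 ± 1.24 in AAB cells. Single libraries moved the size of the genes near 0 in CD4+ cells: leaving each out in turn gave log2 fold changes of 9.02 to 10.65 for Nkg7, 8.41 to 10.23 for Cd8a, 4.77 to 6.93 for Gpr55 and 5.54 to 6.27 for Alpl, with every call kept. The values moved most without CD4+ replicate 1 or 2, and for Gpr55 also without CD8+ replicate 1.

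The 12 genes of largest fold change toward CD4+ cells were led by Cd4, Cd40lg and Zbtb7b. Cd40lg (chrX:57212143-57224042, plus strand), the ligand with which helper cells activate B cells and dendritic cells, was at 45.6, 44.1 and 46.3 CPM in CD4+ and 0.253 and 0 CPM in CD8+ cells, 2297 against 3 counts, a ratio of 335 (exact 95% interval 115 to 1628). Myo6, a myosin that moves toward the minus end of actin filaments, was at 389, 565 and 385 CPM in CD4+ and 14.6 and 11.4 CPM in CD8+ cells (log2 fold change -5.10 ± 0.23, adjusted p = 7.18e-06). Myo10, a myosin of filopodia, was at 83.7, 76.9 and 89.6 against 0.843 and 1.79 CPM (log2 fold change -6.00 ± 0.21, adjusted p = 2.16e-06). Pdlim4, an adaptor that binds actin-associated proteins, was at 63.2, 82.6 and 94.3 against 0.674 and 3.39 CPM (log2 fold change -5.35 ± 0.41, adjusted p = 9.81e-05). Map6, which stabilizes microtubules, was at 30.8, 38.9 and 42.5 against 0.674 and 0.0942 CPM (log2 fold change -6.53 ± 0.36, adjusted p = 2.31e-05). None of the CD8+ libraries reached a CD4+ library in any of these genes, which the rule that chose them required. Acvr1c, the activin and Nodal receptor ALK7, was at 37.1, 32.5 and 37.3 against 0.422 and 1.13 CPM (log2 fold change -5.53 ± 0.26, adjusted p = 8.89e-06). Ptgir, the prostacyclin receptor, was at 8.55, 9.72 and 14.6 against 0.0843 and 0.283 CPM (log2 fold change -5.88 ± 0.50, adjusted p = 1.76e-04). Nav2 gave 709 against 3 counts, a ratio of 104 (exact 95% interval 35.3 to 503), Adh1 a log2 fold change of -5.20 ± 0.65 and Cdc42bpb, a kinase that acts downstream of CDC42, of -4.99 ± 0.44. Myo6, Myo10 and Pdlim4 were called in the same direction in AAB, BBA and WT cells without cytokine. Leaving out CD8+ replicate 1 or 2 moved the log2 fold changes of genes that were near 0 in CD8+ cells, over a range of -12.45 to -7.44 for Cd40lg, -10.92 to -5.72 for Nav2, -8.53 to -5.78 for Map6, -9.72 to -4.31 for Adh1, -6.90 to -5.24 for Ptgir, -6.88 to -4.57 for Pdlim4, -6.37 to -4.97 for Acvr1c and -6.61 to -5.54 for Myo10, with every call kept.

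**Figure D2:**
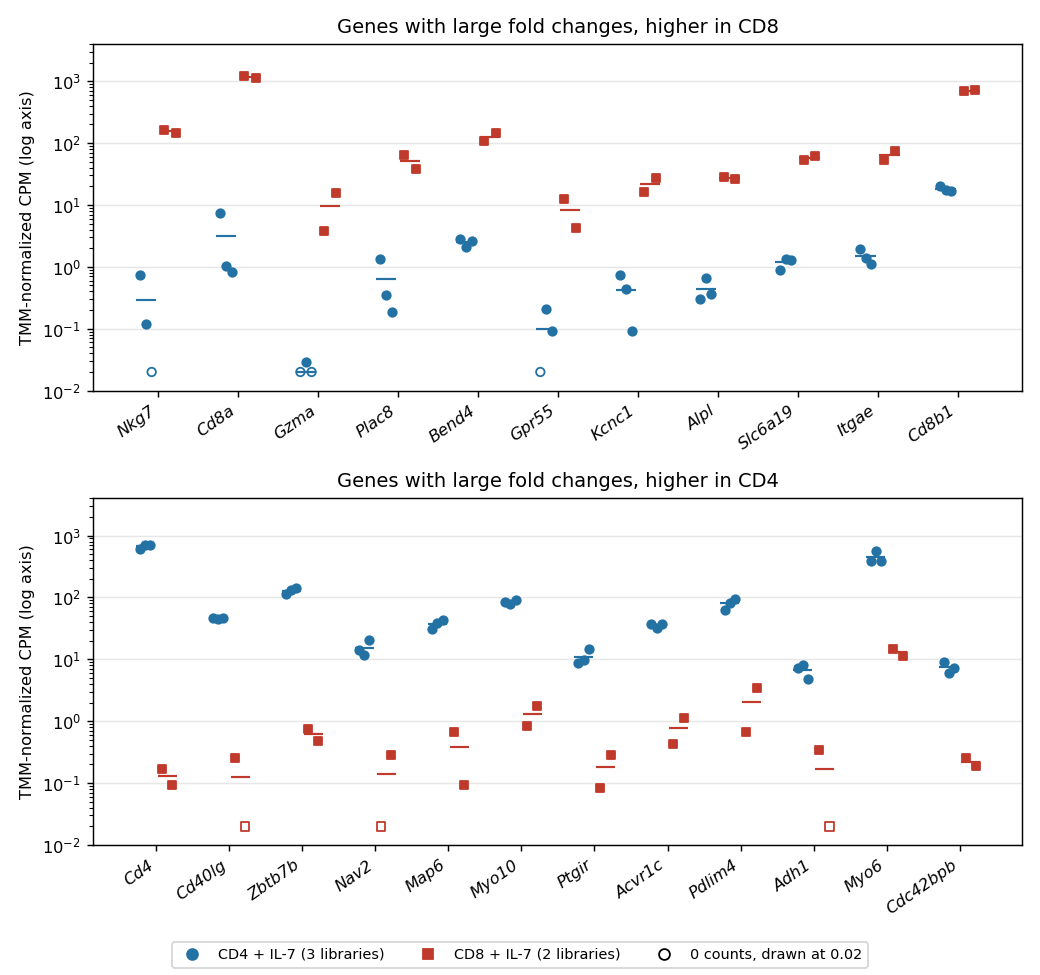
TMM-normalized CPM on a log axis of genes with large fold changes in each direction, in the 3 CD4+ libraries (blue circles) and 2 CD8+ libraries (red squares) with IL-7; short lines are means and open symbols are libraries with 0 counts, drawn at 0.02. For each gene every library of the higher lineage lies above every library of the other, which the rule that chose the genes required. Cd8b1 keeps 19.96, 17.3 and 16.6 CPM in the CD4+ libraries.

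The 21 listed genes of the cytotoxic programme summed to 382 to 425 CPM in the CD4+ and 805 to 857 CPM in the CD8+ libraries, filtered or not. 13 of them passed the filter, which favours genes that are high in 1 group, and of these 8 were called higher in CD8+ cells and 1 higher in CD4+ cells. Without cytokine 7 of 12 were called higher and 1 lower, and 4 of 10 in AAB and 4 of 11 in BBA cells were called higher and none lower. Ctsw, a protease of cytotoxic cells, was at 92.1, 35.3 and 75.9 CPM in CD4+ and 292 and 342 CPM in CD8+ cells (log2 fold change 2.28 ± 0.32, adjusted p = 0.0017). Prf1, the pore-forming protein perforin, was at 18.3, 15.6 and 17.7 against 22.1 and 31.5 CPM (log2 fold change 0.65 ± 0.16, adjusted p = 0.0203), a call lost without CD4+ replicate 2 or CD8+ replicate 2 (highest adjusted p = 0.142). Crtam, an adhesion receptor of activated CD8+ cells, was at 1.35, 1.09 and 1.57 against 12.5 and 10.7 CPM (log2 fold change 3.16 ± 0.26, adjusted p = 1.53e-04). The granzyme genes Gzma (3.79 and 15.7 CPM in CD8+ cells, 212 counts against 1, a ratio of 484 with an exact 95% interval of 85.9 to 19203) and Gzmb (0.4502, 0.118 and 0.0926 against 10.5 and 3.296 CPM) and the chemokine gene Ccl5 (0.3001, 0.414 and 0.185 against 4.89 and 10.1 CPM) differed by more than a factor of 2 between the CD8+ libraries. Without CD8+ replicate 2 the log2 fold change was 7.14 for Gzma, 5.93 for Gzmb and 3.84 for Ccl5, and that of Gzma was 9.60 without CD4+ replicate 2, with every call kept. In BBA cells CD4+ replicate 3 held 22.4 CPM of Gzma and 28.0 CPM of Gzmb, and neither gene nor Ccl5 was called there. In a fit that took its spread from the WT, AAB and BBA libraries together, Gzma (adjusted p = 0.0891) and Gzmb (adjusted p = 0.101) lost their calls. Fasl, the ligand of the death receptor FAS, was the exception, at 7.804, 5.23 and 3.89 CPM in CD4+ and 0.169 and 0.659 CPM in CD8+ cells (log2 fold change -3.75 ± 0.57, adjusted p = 0.00256), and its log2 fold change was -4.97 without CD8+ replicate 2 and -3.06 without replicate 1. It was lower in CD8+ cells without cytokine as well (-4.46 ± 0.36).

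NK receptor genes are carried by NK cells and by subsets of CD8+ T cells. Klrd1, the CD94 chain, was at 2.55, 1.92 and 1.67 against 42.8 and 48.1 CPM (log2 fold change 4.52 ± 0.15, adjusted p = 2.16e-06). Klrk1, which encodes NKG2D, was at 1.05, 0.207 and 0.0926 against 6.66 and 10.9 CPM (log2 fold change 4.75 ± 0.63, adjusted p = 0.0013), with 4.17 without CD4+ replicate 2 and 5.59 without replicate 1. These were the 2 of 24 listed NK receptor genes that passed the filter, which favours genes that are high in 1 group. The summed level of the 24 genes was 4.44 to 5.07 CPM in CD4+ and 57.2 to 82.4 CPM in CD8+ libraries. The sort for CD3 and for low CD44 would remove NK cells and memory cells high in CD44, and what passed it was not tested. In bulk RNA fewer cells of a type and less RNA per cell cannot be told apart, for these genes and for every gene above.

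The 26 listed genes of the CD4+ helper programme summed to 3234 to 3502 CPM in the CD4+ and 2300 to 2331 CPM in the CD8+ libraries, filtered or not. 19 of them passed the filter, which favours genes that are high in 1 group. Of these 9 were called lower in CD8+ cells and none higher, with a median log2 fold change of -0.63. Of all genes tested 5.4% were called lower and 5.89% higher in CD8+ cells. Cd28, the main costimulatory receptor of naive T cells, was at 275, 248 and 278 CPM in CD4+ and 66.2 and 64.9 CPM in CD8+ cells (log2 fold change -2.03 ± 0.08, adjusted p = 2.91e-06). Tnfrsf4, which encodes OX40, was at 67.8, 84.8 and 81.5 against 15.8 and 17.99 CPM (log2 fold change -2.22 ± 0.13, adjusted p = 2.59e-05). Il6ra was at 479, 469 and 487 against 267 and 286 CPM (log2 fold change -0.79 ± 0.07, adjusted p = 1.75e-04). Cd5, a negative regulator of TCR signalling, was at 171, 231 and 169.8 against 107 and 91.4 CPM (log2 fold change -0.95 ± 0.14, adjusted p = 0.00247). Cd40lg, Cd28 and Tnfrsf4 were called lower in CD8+ cells in all 4 comparisons. The remaining calls were Ctla4 (-1.32), Cd200 (-1.60), Slamf1 (-0.83) and Il4ra (-0.67), and those of Cd200 (adjusted p = 0.0684) and Ctla4 (adjusted p = 0.064) were lost without CD8+ replicate 2.

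Genes often listed for regulatory T cells were split. Of 15 tested, 6 were higher in CD4+ cells (Tnfrsf4, Izumo1r, Il2ra, Ctla4, Capg, Gpr83) and 4 higher in CD8+ cells (Itgae, Tnfrsf9, Nt5e, Ikzf2). Such calls cover 66.7% of the 15 regulatory T cell genes, against 11.3% of all genes tested. Foxp3, the defining factor of that lineage, was at 23.9, 31.05 and 20.2 CPM in CD4+ and 21.8 and 16.01 CPM in CD8+ cells and was not called (log2 fold change -0.42 ± 0.20, adjusted p = 0.171). Izumo1r, which encodes folate receptor 4, was at 46.5, 69.2 and 37.9 against 18.5 and 11.96 CPM (log2 fold change -1.76 ± 0.28, adjusted p = 0.00317). Nt5e, the ectonucleotidase CD73, was at 101, 143 and 82.03 against 234 and 237 CPM (log2 fold change 1.10 ± 0.19, adjusted p = 0.00436), a call lost in the fit with the spread of all 3 genotypes (adjusted p = 0.151). Without CD8+ replicate 2 the calls of Il2ra, Ctla4, Gpr83 and Ikzf2 were lost, and without CD8+ replicate 1 those of Il2ra and Ikzf2.

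The chains of the IL-7 receptor were not called, while chains of receptors for IL-2, IL-15 and IL-4 were. Of 23 tested receptors, JAKs and STATs of the common gamma chain family, 2 were higher in CD8+ cells and 3 higher in CD4+ cells. These calls are 21.7% of the 23, against 11.3% of all genes tested, and the list had a median log2 fold change of -0.05. Il7r was at 881, 616 and 682 CPM in CD4+ and 628 and 539.9 CPM in CD8+ cells (log2 fold change -0.31 ± 0.15, adjusted p = 0.155), with overlapping libraries, and the common gamma chain Il2rg had a log2 fold change of 0.22 ± 0.08 and Jak1 of -0.04 ± 0.09; none was called. Il2rb, the shared β chain of the IL-2 and IL-15 receptors, was at 39.02, 39.6 and 43.5 CPM in CD4+ and 233 and 201 CPM in CD8+ cells (log2 fold change 2.41 ± 0.08, adjusted p = 2.16e-06). Il2ra, the α chain that raises the affinity for IL-2, was at 23.6, 59.4 and 38.3 against 13.1 and 16.6 CPM (log2 fold change -1.49 ± 0.34, adjusted p = 0.0153), a call lost without either CD8+ library (highest adjusted p = 0.111). Jak2 was lower (-0.77 ± 0.06) and Jak3 higher (0.60 ± 0.11) in CD8+ cells. The call of Jak3 was lost without CD4+ replicate 1 (log2 fold change 0.50), without CD8+ replicate 2 (0.50) and in the fit with the spread of all 3 genotypes (adjusted p = 0.0612). Stat5b was at 310.2, 344 and 376 CPM in CD4+ and 217 and 263 CPM in CD8+ cells (log2 fold change -0.52 ± 0.11, adjusted p = 0.00962), which is under the fold limit, and it passed the limit without CD4+ replicate 1 or CD8+ replicate 2. Stat5a was at 57.9, 64.01 and 33.98 against 70.5 and 32.1 CPM (-0.02 ± 0.34) and was not called; its log2 fold change was -0.70 without CD8+ replicate 1 and 0.43 without CD8+ replicate 2. As paralogs, Stat5a and Stat5b may share reads.

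Of 27 tested genes known as STAT5 targets, 3 were higher in CD8+ cells (Cdk6, Myc, Slc7a5). In CD4+ cells 6 were higher (Tnfrsf4, Il2ra, Cish, Gimap4, Gimap6, Il4ra). The calls make up 33.3% of the 27, against 11.3% of all genes tested, and the median log2 fold change of the list was -0.11. Bcl2, the survival gene that IL-7 induces, was not called, at 1566, 1404 and 1539 CPM in CD4+ and 1465 and 1487 CPM in CD8+ cells (-0.03 ± 0.07). Myc, a driver of growth and ribosome production, was at 172, 164 and 152 against 392 and 367 CPM (log2 fold change 1.23 ± 0.07, adjusted p = 2.59e-05). Cish, a feedback inhibitor of cytokine receptors, was at 101, 128 and 108 CPM in CD4+ and 68.5 and 65.9 CPM in CD8+ cells (log2 fold change -0.75 ± 0.10, adjusted p = 0.00148). In mice with fewer Stat5 alleles it was at 94.9 and 52.7 against 16.5 and 18.9 CPM in AAB cells (-2.06 ± 0.30) and at 19.6, 26.1 and 12.7 against 3.20 and 3.86 CPM in BBA cells (-2.46 ± 0.35). The lineage difference was thus -0.75, -2.06 and -2.46 in WT, AAB and BBA cells, and the difference between these 3 values was not tested. Socs1, a further feedback inhibitor, went the other way in WT and BBA cells. In WT cells it was at 82.8, 79.5 and 84.6 against 108 and 122 CPM, under the fold limit (0.48 ± 0.07). It was at 42.5, 44.6 and 38.5 against 125 and 124 CPM in BBA cells, where it was called (1.57 ± 0.09). In AAB cells Socs1 was not called. Il4ra (-0.67), Gimap4 (-0.70) and Gimap6 (-0.69) were modestly lower in CD8+ cells. The WT call of Cish was lost in the fit with the spread of all 3 genotypes (adjusted p = 0.0724).

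Of 40 tested TCR signalling genes 2 were called higher in CD8+ cells and 5 higher in CD4+ cells. That is 17.5% called, against 11.3% of all genes tested (5.89% higher in CD8+ and 5.4% higher in CD4+ cells). Cd3e, a chain of the TCR complex, was not called (0.03 ± 0.07). Trat1, an adaptor that keeps the TCR at the cell surface, was at 89.9, 81.2 and 92.3 CPM in CD4+ and 9.61 and 11.5 CPM in CD8+ cells (log2 fold change -3.06 ± 0.12, adjusted p = 3.10e-06). Ptpn22, a phosphatase that dampens TCR signals, was at 156, 104 and 136 against 337 and 297 CPM (log2 fold change 1.28 ± 0.15, adjusted p = 7.33e-04). Sit1 (-1.04), Ubash3b (-0.86), Cd5 (-0.95) and Rasgrp1 (-0.70) were lower and Sla2 (0.60) higher in CD8+ cells. Sla2 lost its call without CD4+ replicate 1 (0.52) or CD8+ replicate 2 (0.57), Rasgrp1 without CD8+ replicate 1 (-0.58), and Ubash3b in the fit with the spread of all 3 genotypes (adjusted p = 0.0629).

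Of 20 tested homing genes 4 were higher in CD8+ cells and 6 higher in CD4+ cells, 50% against 11.3% of all genes tested. Ccr9, the receptor for the gut and thymus chemokine CCL25, was at 2.55, 4.02 and 4.26 CPM in CD4+ and 61.96 and 60.6 CPM in CD8+ cells (log2 fold change 4.01 ± 0.15, adjusted p = 3.10e-06). Cxcr6 was at 1.05, 1.03 and 1.11 against 35.8 and 16.8 CPM (log2 fold change 4.63 ± 0.35, adjusted p = 9.86e-05), with the CD8+ libraries a factor of more than 2 apart and a log2 fold change of 3.97 without CD8+ replicate 1. In the other direction Itgb3, the integrin β3 chain, was at 368, 357 and 331 against 49.7 and 40.1 CPM (log2 fold change -2.97 ± 0.10, adjusted p = 2.16e-06). Gpr183, the oxysterol receptor EBI2 that guides cells to follicle borders, was at 41.1, 53.6 and 33.3 against 14.5 and 9.23 CPM (log2 fold change -1.85 ± 0.25, adjusted p = 0.00137). Itgb7 was at 545, 623 and 596 against 318 and 258 CPM (log2 fold change -1.03 ± 0.10, adjusted p = 3.91e-04). S1pr1, which lets T cells leave lymph nodes, was lower in CD8+ cells by a small amount (-0.59 ± 0.07), and Cxcr4 had a log2 fold change of 0.70 ± 0.19. The call of Cxcr4 was lost without any single library other than CD4+ replicate 3 (highest adjusted p = 0.146), and that of S1pr1 fell under the fold limit without CD4+ replicate 1 or 3 or CD8+ replicate 2 (-0.58 to -0.56). Itgb7 was called in no other comparison (0.28 without cytokine, -0.35 in AAB and -0.44 in BBA cells). Cd44, the activation marker used for the sort, was low in all libraries, at 5.403, 5.11 and 6.39 CPM in CD4+ and 1.94 and 2.73 CPM in CD8+ cells, and its call was lost without CD4+ replicate 3 or CD8+ replicate 1 (highest adjusted p = 0.105).

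Of 24 tested genes of naive and memory state, 4 were higher in CD8+ cells and 3 higher in CD4+ cells. Both directions together cover 29.2% of the 24, against 11.3% of all genes tested. Ahnak, a large scaffold protein at the membrane, was at 39.3, 33.4 and 60.2 CPM in CD4+ and 216 and 192 CPM in CD8+ cells (log2 fold change 2.22 ± 0.21, adjusted p = 2.51e-04). Ly6c2 was at 0.3001, 1.39 and 1.11 against 18.97 and 40.4 CPM (log2 fold change 4.71 ± 0.42, adjusted p = 2.09e-04), with 4.12 without CD8+ replicate 2, and as a member of a family of near-identical genes its reads may be divided. Igfbp4 had a log2 fold change of -0.87 ± 0.15 and Dapl1, a gene of naive T cells, of 0.92 ± 0.22. The call of Dapl1 was lost without CD8+ replicate 1 (adjusted p = 0.136) and in the fit with the spread of all 3 genotypes (adjusted p = 0.139), and without CD8+ replicate 1 the list had 1 call in place of 3 toward CD4+ cells.

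**Figure D3:**
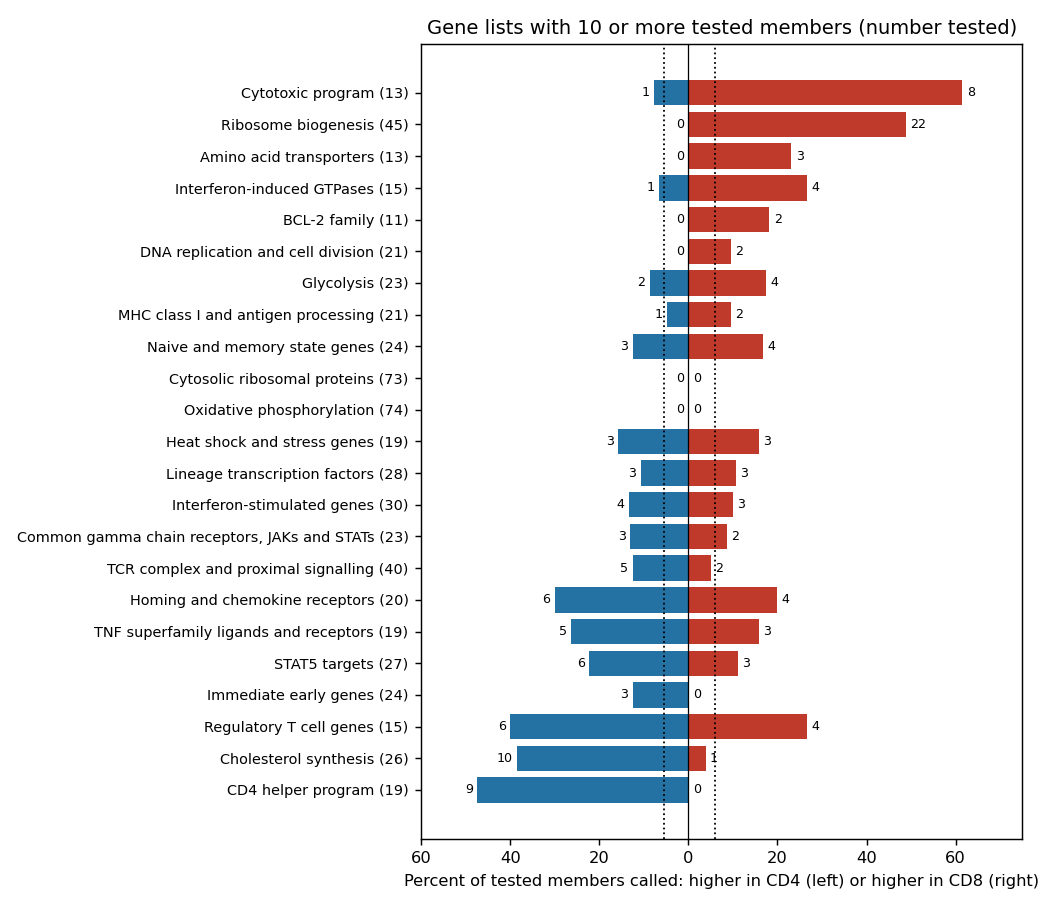
Percent of the tested members of 23 gene lists (number tested in parentheses) that were called higher in CD4+ cells (blue, to the left) or in CD8+ cells (red, to the right) in WT naive cells with IL-7, with the counts at the bar ends. Dotted lines mark the 5.4% and 5.89% of all tested genes. Ribosome biogenesis (22 against 0) and the cytotoxic programme (8 against 1, of the 13 listed genes that passed the filter) lie to the right. The CD4+ helper programme (0 against 9, of the 19 listed genes that passed the filter) and cholesterol synthesis (1 against 10) lie to the left.

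Ribosome biogenesis genes, which make and assemble ribosomal RNA in the nucleolus, were higher in CD8+ cells. 22 of 45 tested members (48.9%) were called higher, against 5.89% of all genes tested, and none lower. The median log2 fold change was 0.57, against 0.0047 for all genes tested. Rrp12, needed for the export of ribosomal subunits, was at 27.3, 25.4 and 23.8 CPM in CD4+ and 68.4 and 56.9 CPM in CD8+ cells (log2 fold change 1.30 ± 0.11, adjusted p = 1.71e-04). Fbl, the methyltransferase fibrillarin, was at 108, 104 and 104 against 190.4 and 178 CPM (log2 fold change 0.81 ± 0.06, adjusted p = 8.36e-05). Polr1b, a subunit of RNA polymerase I, was at 45.6, 56.3 and 53.5 against 96.4 and 95.02 CPM (log2 fold change 0.87 ± 0.09, adjusted p = 5.12e-04). The lineages did not overlap in these genes, and their differences were small beside those of the lineage markers. Nhp2 (1.05), Mrto4 (1.04) and Utp20 (1.01) had the next largest log2 fold changes, and Wdr75 (0.60) had the smallest of the 22 and fell under the fold limit without CD4+ replicate 2 or 3 or CD8+ replicate 1. With each library left out in turn the number of members called was 20 to 26, with a limit of 2-fold it was 4, and with Bonferroni adjustment 8. Of the proteins of the ribosome itself, none of 73 tested cytosolic ribosomal protein genes was called, and their median log2 fold change was 0.21. Rplp0 for example was at 3482, 3351 and 3414 against 3932 and 4007 CPM (0.22 ± 0.05).

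The same members had a median log2 fold change of 0.61 in AAB cells, where 1 of 45 was called (Gnl3), and of 0.36 in BBA cells, where 7 were called higher and Polr1a lower. Without cytokine the median was 0.24 with 3 of 45 (6.67%) called higher (Nhp2, Rrp12, Rrs1). Of all genes tested 8.8% were called higher in CD8+ cells without cytokine, 1.38% in AAB and 3.15% in BBA cells with IL-7. The biological coefficient of variation was 18.8% in the AAB, 15.8% in the BBA and 10.9% in the WT libraries with IL-7. Its part in these counts was not tested.

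MYC and related factors bind the E-box CACGTG, and among the called ribosome biogenesis genes the windows of Utp20 and Nop2 hold it. They are shown as the promoters of genes from the list with the most calls; the E-box is in capitals and starts at +38 in Utp20 and at -60 in Nop2, counted from the RefSeq start.
Utp20 (chr10:88826765-88827064, minus strand): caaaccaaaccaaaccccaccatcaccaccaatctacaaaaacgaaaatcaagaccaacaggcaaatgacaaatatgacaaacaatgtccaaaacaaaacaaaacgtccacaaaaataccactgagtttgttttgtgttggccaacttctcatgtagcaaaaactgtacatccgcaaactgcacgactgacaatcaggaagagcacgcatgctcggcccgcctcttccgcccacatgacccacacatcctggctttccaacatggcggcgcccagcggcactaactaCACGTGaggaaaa
Nop2 (chr6:125131633-125131932, plus strand): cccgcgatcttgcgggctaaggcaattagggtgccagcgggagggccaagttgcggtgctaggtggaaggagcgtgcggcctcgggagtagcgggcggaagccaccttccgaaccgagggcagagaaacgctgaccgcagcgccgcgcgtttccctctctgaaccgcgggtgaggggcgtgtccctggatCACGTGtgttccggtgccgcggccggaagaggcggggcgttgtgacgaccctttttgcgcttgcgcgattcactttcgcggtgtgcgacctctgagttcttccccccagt
4 of the 20 windows (20%) of the called ribosome biogenesis genes (19 of 22 genes had a window) hold the E-box. Of the 42 windows of all tested members of that list, called or not, 6 (14.3%) hold it. So did 109 of 619 windows of genes called higher in CD8+ cells (17.6%), 44 of 613 of genes called higher in CD4+ cells (7.18%), 10.7% of the windows of all genes tested and 7.15% of all windows. The STAT5 motif TTCNNNGAA was in 9.53%, 7.01%, 7.0% and 8.30% of the last 4 sets. These shares are descriptions of the letters in the windows, without a test, and no binding was measured.

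Cholesterol synthesis genes went the other way. 10 of 26 tested members were called higher in CD4+ cells and 1, Acat2, higher in CD8+ cells, with a median log2 fold change of -0.35. Of all genes tested 5.4% were called higher in CD4+ and 5.89% higher in CD8+ cells. Sqle, which makes squalene epoxide, was at 36.6, 47.9 and 43.9 against 15.7 and 19.4 CPM (log2 fold change -1.30 ± 0.15, adjusted p = 7.01e-04). Cyp51, a demethylase of lanosterol, was at 61.4, 73.1 and 65.0 against 34.7 and 34.9 CPM (log2 fold change -0.94 ± 0.10, adjusted p = 4.70e-04). A further 7 (Idi1, Fdft1, Mvk, Insig1, Fdps, Msmo1, Sc5d) had log2 fold changes between -0.78 and -0.59. Srebf2, the master regulator of the pathway, had a log2 fold change of -0.54 ± 0.07, which is under the fold limit. Acat2, which makes acetoacetyl-CoA, was at 43.4, 55.9 and 55.4 CPM in CD4+ and 113 and 109 CPM in CD8+ cells (log2 fold change 1.09 ± 0.11, adjusted p = 3.21e-04). Single libraries ended the calls of Mvk (without CD4+ replicate 2 or either CD8+ library), Msmo1 (without CD4+ replicate 2), Insig1 and Sc5d (without CD8+ replicate 1). Leaving out each library in turn left 8 to 11 members called higher in CD4+ cells, and 2 differed by more than 2-fold.

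In AAB cells 10 of 26 members were called higher in CD4+ cells and none in CD8+ cells, with a median of -0.53. In BBA cells 4 were called, all higher in CD4+ cells, with a median of -0.35. Of all genes tested 1.59% were called higher in CD4+ cells in AAB and 3.75% in BBA cells. Without cytokine none of 27 was called higher in CD4+ cells, Scd1 was called higher in CD8+ cells, and the median was -0.05. Acat2 was called in WT cells with IL-7 and not in AAB (0.20) or BBA cells (-0.15).

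**Figure D4:**
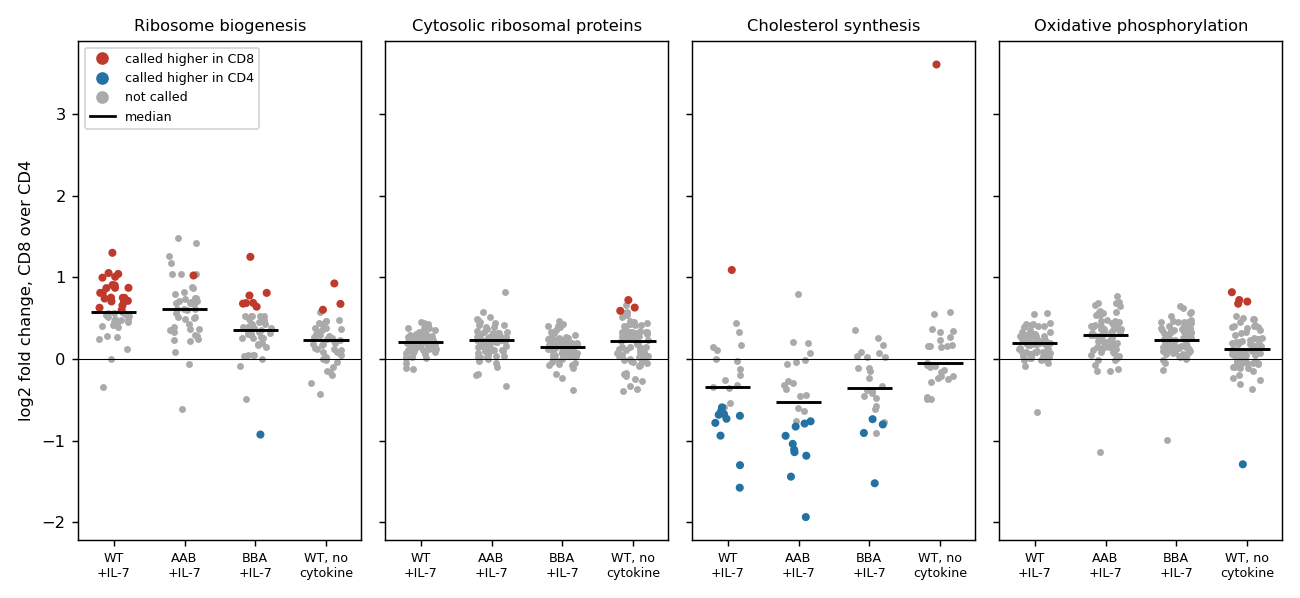
Log2 fold change of CD8+ over CD4+ naive cells (y axis) for the members of 4 gene lists in WT, AAB and BBA cells with IL-7 and WT cells without cytokine; each point is a gene, red if called higher in CD8+ cells, blue if called higher in CD4+ cells, and black lines are medians. Ribosome biogenesis lies above 0 with medians of 0.24 to 0.61, cytosolic ribosomal proteins and oxidative phosphorylation have medians of 0.13 to 0.29, and cholesterol synthesis has medians of -0.35 to -0.53 with IL-7 and -0.05 without cytokine.

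None of 74 tested oxidative phosphorylation genes was called (median 0.19). Of 23 glycolysis genes 6 were called (26.1%, against 11.3% of all genes tested), 4 higher in CD8+ and 2 higher in CD4+ cells, with a median of 0.01, and without CD8+ replicate 1 the first count was 2. Slc16a1, the lactate transporter MCT1, was at 31.1, 28.7 and 34.5 CPM in CD4+ and 75.6 and 71.5 CPM in CD8+ cells (log2 fold change 1.23 ± 0.10, adjusted p = 1.34e-04). Hk2, which starts glycolysis, was at 1.05, 0.354 and 0.278 against 5.82 and 4.897 CPM (log2 fold change 3.52 ± 0.50, adjusted p = 0.00179). Ldhb, a lactate dehydrogenase subunit, was higher in CD4+ cells at 23.9, 30.01 and 33.4 against 10.96 and 10.3 CPM (log2 fold change -1.46 ± 0.16, adjusted p = 5.17e-04). Of 20 listed amino acid transporters 13 passed the filter, which favours genes that are high in 1 group. Among these 13, 3 (23.1%) were higher in CD8+ cells and none lower, where 5.89% and 5.4% of all genes tested were. The summed level of the 20 genes was 1482 to 1615 CPM in the CD4+ and 1871 to 2039 CPM in the CD8+ libraries. Slc7a5, which imports leucine, was at 37.2, 38.1 and 43.1 against 75.8 and 74.4 CPM (log2 fold change 0.93 ± 0.09, adjusted p = 2.97e-04). Slc1a5, which imports glutamine, was at 210.2, 223 and 231 against 336 and 364 CPM (log2 fold change 0.66 ± 0.07, adjusted p = 4.61e-04). The call of Slc1a5 was lost in the fit with the spread of all 3 genotypes (adjusted p = 0.178).

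Part of the lineage differences was also called in the other libraries. Of the 598 genes called higher in CD8+ cells, 117 (19.6%, and 92.1% of the 127 called there, which are 1.38% of the genes tested) were called higher in CD8+ AAB cells and 218 (36.5%, and 74.4% of the 293 called, 3.15%) in CD8+ BBA cells. Of the 548 called higher in CD4+ cells, 129 (23.5%, and 88.4% of 146, 1.59% of the genes tested) and 263 (48.0%, and 75.4% of 349, 3.75%) were called higher in CD4+ AAB and BBA cells. None was called in the opposite direction in either genotype. Without cytokine 308 (51.5%, and 33.6% of 916, 8.8% of the genes tested) and 262 (47.8%, and 39.3% of 666, 6.4%) were called in the same direction, and 6 in the opposite one. The comparison without cytokine sets CD8+ libraries of female cells against CD4+ libraries of male cells. All 14 tested B cell markers and 7 of 9 myeloid markers were called higher in CD8+ cells in it. Lineage, sex and admixed cells cannot be told apart there. Among 9005 genes tested in all 4 comparisons, 94 were called higher in CD8+ cells in each and 83 higher in CD4+ cells in each. These comparisons use the same count table for each lineage, so that a difference between the tables would recur in all of them.

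Among the 6 genes called in opposite directions with and without cytokine were Coro2a and Slc1a5, higher in CD8+ cells with IL-7, and Fbxo17, Lgals1 and Zbtb42, higher in CD4+ cells with IL-7. Slc1a5 was at 249.5, 306 and 242 CPM in CD4+ and 164 and 175 CPM in CD8+ cells without cytokine, and at 206, 219.6 and 227 against 323 and 352 CPM with IL-7. The response of Slc1a5 was called in CD8+ cells and not in CD4+ cells. With IL-7 the lineage call of Coro2a was lost without any of 4 libraries (0.82, adjusted p = 0.444, without CD8+ replicate 1), and that of Lgals1 without CD4+ replicate 2 or either CD8+ library (highest adjusted p = 0.141).

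The response to IL-7 was then set beside the lineage difference, as IL-7 over no cytokine in CD8+ cells minus the same in CD4+ cells, fitted on the 10 WT libraries. Each response lies within 1 count table. Between IL-7 and no cytokine 2406 of 10516 genes were called in CD8+ cells (22.9%), of which 1134 rose (10.8%) and 1272 fell (12.1%). In CD4+ cells 1781 were called (16.9%), of which 988 rose (9.4%) and 793 fell (7.54%). The responses differed in 632 (6.01%), 237 more positive (2.25%) and 395 more negative (3.76%) in CD8+ cells. All 14 tested B cell markers were among the genes that fell in CD8+ cells, and 1 of them fell in CD4+ cells. The CD8+ libraries without cytokine, which are of female cells, also held 215 to 635 CPM of B cell markers (27.6 to 52.2 CPM in CD4+ cells without cytokine) and 103 to 159 CPM of myeloid markers (43.8 to 52.3 CPM). In these libraries sex, the admixed markers and the cytokine cannot be told apart, and the count was 208 without CD8+ replicate 2 without cytokine, 389 without its replicate 1, 238 and 355 without CD8+ replicate 1 and 2 with IL-7 and 382 without CD4+ replicate 2 with IL-7.

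Of 27 tested STAT5 targets 15 rose with IL-7 in each lineage, with a median of 0.64 in CD8+ and 0.75 in CD4+ cells. 6 responses differed, all of them less positive in CD8+ cells: Bcl2, Socs1, Socs3, Pim2, Il10ra and Tnfrsf4. Bcl2 rose from 257, 256 and 189 to 1531, 1380.1 and 1516 CPM in CD4+ cells and from 376 and 334 to 1409 and 1436 CPM in CD8+ cells (interaction -0.65 ± 0.17, adjusted p = 0.0425). The lineages did not overlap without cytokine and overlapped with IL-7. Socs1 rose from 28.5, 32.3 and 31.7 to 81.01, 78.2 and 83.4 CPM in CD4+ cells and from 62.6 and 83.1 to 104 and 118 CPM in CD8+ cells (interaction -0.78 ± 0.16, adjusted p = 0.019). Tnfrsf4 rose from 10.3, 10.1 and 6.83 to 66.3, 83.3 and 80.3 CPM in CD4+ and from 5.02 and 4.28 to 15.2 and 17.4 CPM in CD8+ cells (interaction -1.29 ± 0.26, adjusted p = 0.0171). Cish rose in both lineages (2.32 ± 0.18 in CD8+ and 2.08 ± 0.14 in CD4+ cells), with an interaction of 0.25 ± 0.22 that was not called, and Il7r was called in neither. Single libraries ended the calls of a difference for Bcl2 (8 of 10 libraries, highest adjusted p = 0.138), Socs3 (4), Tnfrsf4 (3) and Socs1 (2), and not those of Pim2 and Il10ra.

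Among 45 ribosome biogenesis genes 3 rose with IL-7 in CD8+ cells and 4 fell in CD4+ cells. Of all genes tested 10.8% rose in CD8+ and 7.54% fell in CD4+ cells. Of the 45 ribosome biogenesis genes 8 had responses that differed, each more positive in CD8+ cells. Gnl3, the nucleolar protein nucleostemin, went from 73.7, 74.8 and 70.4 to 63.1, 52.4 and 56.8 CPM in CD4+ cells and from 65.6 and 65.3 to 102 and 107 CPM in CD8+ cells (interaction 1.03 ± 0.12, adjusted p = 0.00115). Rrp12 went from 56.5, 47.8 and 47.3 to 26.7, 24.9 and 23.4 CPM in CD4+ cells and from 76.05 and 85.2 to 65.8 and 54.9 CPM in CD8+ cells (interaction 0.60 ± 0.16, adjusted p = 0.0404). For Rrp12 the response itself was a decrease in CD4+ cells (-1.02 ± 0.10). Of 27 cholesterol synthesis genes 12 rose with IL-7 in CD4+ and 4 in CD8+ cells, and 7 responses differed, 6 of them less positive in CD8+ cells. Sqle went from 21.9, 14.3 and 16.7 to 35.8, 47.1 and 43.2 CPM in CD4+ cells and was between 15.1 and 18.7 CPM in the 4 CD8+ libraries (interaction -1.24 ± 0.25, adjusted p = 0.0175). Acat2 differed in the other direction, rising from 13.1 and 9.34 to 109 and 105 CPM in CD8+ cells and from 14.96, 9.90 and 13.9 to 42.4, 54.99 and 54.5 CPM in CD4+ cells (interaction 1.29 ± 0.26, adjusted p = 0.0157). Single libraries ended the calls of a difference for Rrp12 (7 of 10 libraries, highest adjusted p = 0.156), Sqle (3) and Acat2 (2), and not that of Gnl3.

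Of the coreceptor genes, Cd4 and Cd8b1 fell with IL-7 and Cd8a was called in neither lineage. Cd4 went from 1051, 1020.4 and 1164 to 598, 687 and 697 CPM in CD4+ cells (-0.71 ± 0.08), and Cd8b1 from 1253 and 1110.4 to 671 and 685 CPM in CD8+ cells (-0.80 ± 0.10); both decreases were called. Itgae fell in CD8+ cells from 299 and 216 to 50.7 and 72.9 CPM (-2.06 ± 0.18) and was not called in CD4+ cells. Map6 went from 0.239, 0.110 and 0.216 to 30.1, 38.2 and 41.9 CPM in CD4+ cells (7.53 ± 0.42) and was at 0.443 and 0.0563 CPM without and 0.649 and 0.0909 CPM with IL-7 in CD8+ cells. The difference of its responses was lost without CD8+ replicate 1 without cytokine (adjusted p = 0.252).

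**Figure D5:**
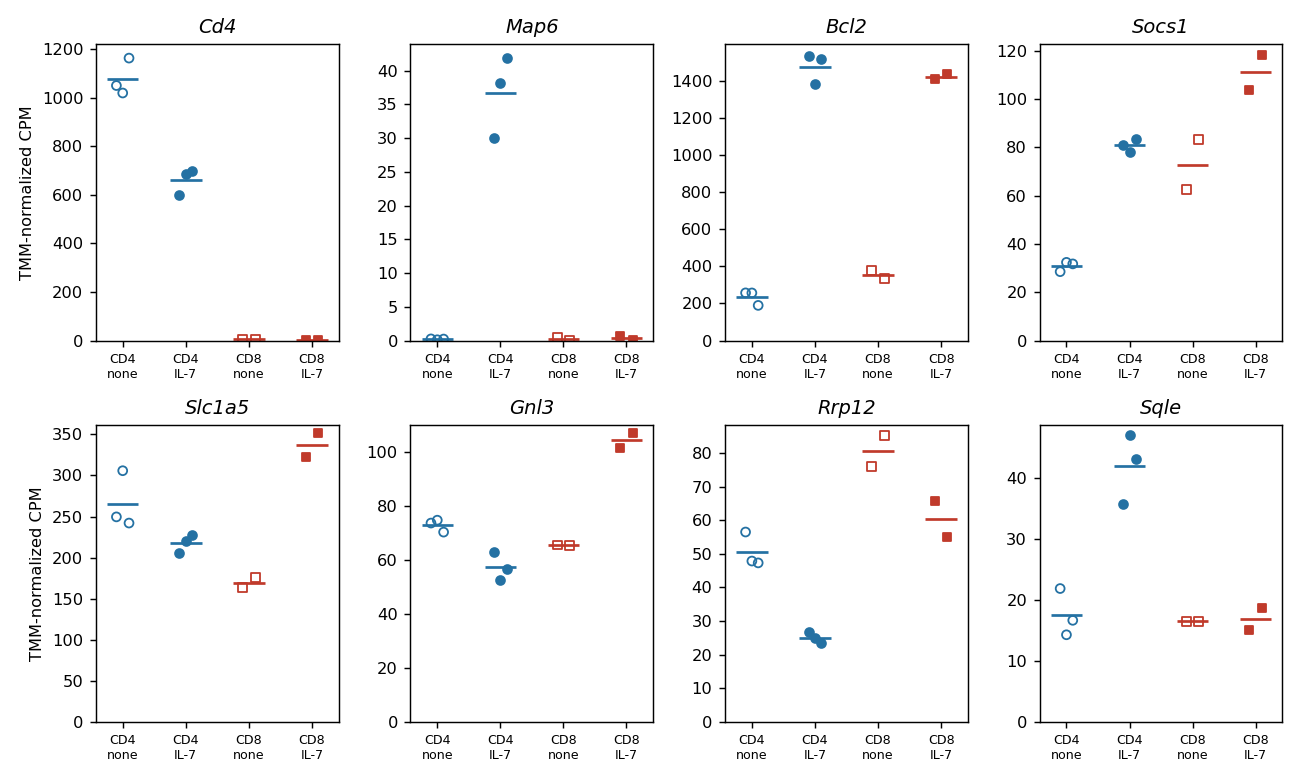
TMM-normalized CPM (linear axes from 0) of 8 genes in WT naive CD4+ cells (blue circles, 3 libraries each) and CD8+ cells (red squares, 2 libraries each) without cytokine (open) and with IL-7 (filled); lines are means. Bcl2 overlaps between the lineages with IL-7, Sqle and Map6 are called as rising in CD4+ cells and not in CD8+ cells, and Slc1a5 and Gnl3 the reverse.

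Symbols with counts in a single table add little. 3596 symbols had counts in the CD8+ table and none in the CD4+ table, and 11 the reverse, and none of them was tested. The highest of the first kind, by mean level over the CD8+ table, were Lrp1b (1.38 CPM), Klra5 (1.34 CPM), Frmpd4 (1.04 CPM), Dmgdh (0.873 CPM) and Gas1 (0.862 CPM). Whether the tables treated such symbols alike was not tested.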

How the data were processed

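Gene counts deposited by the authors, whole-number read counts per gene symbol in a table per lineage, were used as deposited. The submitters' notes name TopHat2, HTSeq and Cufflinks and the build mm9, and the study's methods mm10. Tool versions, and whether counting was stranded, are not given in the sources used here. Both tables were joined by symbol. 2 CD4+ libraries whose labels contradict each other were not used. Genes were filtered at the count threshold with the highest Jaccard similarity between replicates (HTSFilter's rule, re-implemented; 100 thresholds from 1 to 200; 57.3 in WT with IL-7) and tested with edgeR 4.0.16 (R 4.3.3; TMM, quasi-likelihood, Benjamini-Hochberg), with each comparison on its own libraries. The IL-7 responses were fitted on the 10 WT libraries, which sets slightly different CPM. A further fit shared its spread over genotypes, and DESeq2 1.42.0 was an alternative. The procedure was tested on simulated data.

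Genes named first were the 12 per direction (5 for the difference of responses) of largest fold change, among called genes of at least 50 mean normalized counts with no overlap between lineages, without predicted, receptor-segment and sex-linked genes; for the responses, no overlap means that the log ratios of all library pairs did not overlap. A few genes that this rule or the lists would name are not reported here. Up to 4 called members per list, fixed defining members and further examples were added. Members and gene lists were chosen with earlier results of these data known. The study's methods call the replicates biological. Coordinates are GENCODE M21 on GRCm38, for position only.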

Additional observations from a re-analysis of the deposited data

Results flagged for a closer look

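The response to IL-7 (IL-7 over no cytokine) differed between CD8+ and CD4+ cells by the interaction term of edgeR's quasi-likelihood test in the 14 genes given here, which were picked out by size or because the lineage difference turned its direction. Values are CD8+ minus CD4+ log2 responses. The more positive responses in CD8+ cells were those of Rnaset2b (5.44), Fam19a3 (5.09), Coro2a (4.89), Prdm16 (4.09), Rnf144a (3.52) and Slc1a5 (1.28). The more negative ones were those of Ltf (-6.95), Map6 (-6.78), Ngp (-6.42), S100a9 (-6.17), Cd4 (-4.28), Fbxo17 (-3.05), Zbtb42 (-1.83) and Lgals1 (-1.76).

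Rnf144a, a ubiquitin ligase, was at 46.9, 46.97 and 39.1 CPM without and 9.39, 15.8 and 15.8 CPM with IL-7 in CD4+ cells. In CD8+ cells it was at 3.02 and 5.46 CPM without and 13.7 and 17.8 CPM with IL-7. Its response was thus a fall in CD4+ cells and a rise in CD8+ cells. Fam19a3, now named Tafa3, was at 3.71, 2.75 and 2.01 CPM without and 7.04, 8.22 and 6.11 CPM with IL-7 in CD4+ cells. In CD8+ cells it went from 0.0738 and 0.169 to 16.1 and 8.002 CPM. Rnaset2b has a near-identical copy with which it may share reads. Cd4 in the CD8+ libraries was at 3.98 and 4.67 CPM without and 0.162 and 0.0909 CPM with IL-7.

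Ltf, Ngp and S100a9, genes of neutrophil granules and cytosol, were at 9.07 to 34.8 CPM in the CD8+ libraries without cytokine and below 5 CPM in all others. The same CD8+ libraries held more B cell and myeloid markers and were of female cells, and the part of these in the 14 values was not tested. Leaving out single libraries ended the call of Ngp, S100a9, Prdm16, Ltf, Coro2a, Map6 and Lgals1, and not that of Rnaset2b, Fam19a3, Rnf144a, Cd4, Slc1a5, Fbxo17 or Zbtb42. Without CD8+ replicate 2 with IL-7 the value was -11.62 for Ltf, -12.32 for Ngp and -12.57 for S100a9, and the lowest sizes were -5.91 for Ltf and -5.36 for Ngp (without a CD8+ library) and -4.98 for S100a9 (without CD4+ replicate 1 with IL-7). Without CD8+ replicate 2 without cytokine it was 8.91 for Rnaset2b, 5.80 for Fam19a3 and 5.70 for Prdm16, and without CD4+ replicate 3 without cytokine it was 3.20 for Prdm16. Without CD8+ replicate 1 with IL-7 it was 3.56 for Coro2a and -8.76 for Map6, without replicate 2 it was 5.56 for Coro2a, and without CD8+ replicate 1 without cytokine it was 4.66 for Rnaset2b and -4.94 for Map6. No group had the 4 libraries that a check for single outlying samples needs.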

How the results depend on the processing

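No called gene among those followed turned its direction under any alternative run, and of those not called, Stat5a, Bcl2, Ccr7, Cd3e, Jak1 and Socs3 did when single libraries were left out (Stat5a from -0.70 to 0.43). Lineage and count table change together, and groups of 2 or 3 libraries limit every spread. The 1146 calls in WT cells with IL-7 became 549 at a limit of 2-fold and 195 with Bonferroni adjustment, and 840 to 1113 with each library left out. Without cytokine the 1582 calls became 2412 with no filter on low counts, 812 at 2-fold and 167 with Bonferroni, and 967 to 1676 with each library left out. The 273 calls in AAB cells became 767 with DESeq2, 18 with Bonferroni, 1127 in the fit over all genotypes and 150 to 1808 with each library left out. The 642 calls in BBA cells became 1018 with no filter, 357 at 2-fold, 53 with Bonferroni and 302 to 808 with each library left out. The 632 differing responses became 1230 with no filter, 262 at 2-fold, 33 with Bonferroni and 208 to 769 with each library left out. The cause of these moves was not tested, except that the stricter limits call fewer genes by construction. Correlations of same-numbered deviations were 0.352 and -0.131 in WT with IL-7, 0.122 and 0.0866 in WT without cytokine and -0.0958 and -0.292 in BBA. In groups of 2 libraries the deviations mirror each other, so these values cannot settle whether replicate numbers pair the samples. With the replicate block the counts were 1179 in WT with IL-7, 1823 in WT without cytokine, 277 in BBA cells and 800 for the responses. In AAB cells no block could be fitted, as the groups share a single number. Of 135 called genes followed in WT cells with IL-7, 108 kept their call with each library left out and 27 lost it without at least 1, and of 24 followed differences of responses 10 kept it and 14 lost it. Over all settings 2525 single-gene values kept their side of the limit, 301 lost the call and 8 gained it.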

Other observations

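Several further lists held calls in WT cells with IL-7. Of all genes tested 11.3% were called there, 5.89% higher in CD8+ and 5.4% higher in CD4+ cells. Of 11 tested BCL-2 family genes 2 were called, both pro-apoptotic and higher in CD8+ cells: Pmaip1, which encodes NOXA, at 0.9004, 1.30 and 1.85 CPM in CD4+ and 6.91 and 8.85 CPM in CD8+ cells (log2 fold change 2.51 ± 0.33, adjusted p = 0.00127), and Bid at 14.7, 13.8 and 10.4 against 40.7 and 31.4 CPM (log2 fold change 1.48 ± 0.17, adjusted p = 6.68e-04). Of 19 TNF superfamily genes 3 were higher in CD8+ and 5 higher in CD4+ cells. Tnfrsf9, which encodes the costimulatory receptor 4-1BB, was at 2.55, 2.92 and 2.04 against 9.19 and 6.87 CPM (log2 fold change 1.65 ± 0.27, adjusted p = 0.00352), and Tnfrsf25, the receptor DR3, at 89.6, 102 and 108 against 37.5 and 48.8 CPM (log2 fold change -1.21 ± 0.13, adjusted p = 4.42e-04). Of 21 genes of DNA replication and cell division 2 (9.52%) were called, both higher in CD8+ cells, Ccne1 (1.51) and Top2a (0.61). The call of Top2a was lost without any of 4 of the 5 libraries (highest adjusted p = 0.219).

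Interferon-stimulated genes were divided, with 3 of 30 higher in CD8+ and 4 higher in CD4+ cells; the first count was 1 without CD4+ replicate 1 or 3 and the second 2 without CD8+ replicate 1. Slfn5 was at 60.9, 83.7 and 47.9 CPM in CD4+ and 18.5 and 13.4 CPM in CD8+ cells (log2 fold change -2.02 ± 0.25, adjusted p = 0.00103), and Lgals3bp at 36.5, 41.5 and 33.4 against 88.4 and 82.1 CPM (log2 fold change 1.19 ± 0.10, adjusted p = 1.90e-04). Of 15 interferon-induced GTPases 4 were higher in CD8+ cells and 1 lower; for Gbp6 and Tgtp2 near-identical copies may share reads. With IL-7, 25 of 38 interferon-stimulated genes fell in CD8+ cells and 31 in CD4+ cells, where 12.1% and 7.54% of all genes tested fell. Of 27 immediate early genes 20 fell in CD8+ and 19 in CD4+ cells. Of 24 immediate early genes tested between the lineages with IL-7, 3 were called (12.5%, against 11.3% of all genes tested). All 3 were higher in CD4+ cells: Dusp5 (-1.82), Fos (-1.40) and Dusp1 (-0.76). The call of Dusp1 was lost without any library other than CD4+ replicate 1 (highest adjusted p = 0.192).

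Of 19 heat shock and stress genes 3 mitochondrial or cytosolic chaperone genes (Hspe1, Hspd1, Hsph1) were higher in CD8+ cells, and Trib3 (-2.80), Bag3 and Xbp1 were higher in CD4+ cells, with the call of Bag3 lost without CD8+ replicate 2 (adjusted p = 0.0529). Of 21 genes of MHC class I and antigen processing 14.3% were called, against 11.3% of all genes tested. Nlrc5 (0.73) and Erap1 (0.67) were higher in CD8+ cells and H2-T24 was lower. Nlrc5 fell under the fold limit without CD8+ replicate 1 (0.52). Among 4 tested B cell markers Cd79b was higher in CD8+ cells, at 2.85, 1.48 and 1.204 against 8.51 and 5.46 CPM, a call lost without CD8+ replicate 1 (adjusted p = 0.0849).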
